A study of Homo sapiens with 16 samples.

Results

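The nuclear genes of the mitochondrial respiratory chain and ATP synthase were followed in nascent transcription of Kasumi-1 cells, a human acute myeloid leukaemia line, after degradation of the chromatin remodeller SMARCA5. Members were all transcripts whose symbol begins with NDUF, UQCR, COX plus a digit, or ATP5, or is SDHA, SDHB, SDHC or SDHD. The rule gave 91 of the 10304 transcripts in the count tables. By textbook role, 41 belonged to complex I (7 core subunits, 30 accessory subunits and 4 assembly factors), 4 to complex II, 8 to complex III, 20 to complex IV (11 subunits and 9 assembly factors) and 14 to ATP synthase, here called complex V. The other 4 members, ATP5S, ATP5SL, COX4NB and NDUFA4L2, carry a matching name but are not counted as subunits, and COX4NB encodes a membrane protein complex subunit outside the mitochondrion. ATP5J2-PTCD1 and NDUFC2-KCTD14 are readthrough transcripts that run through a neighbouring gene.

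Precision run-on sequencing (PRO-seq) maps RNA polymerases that are engaged on DNA, by letting them extend their RNA by a labelled nucleotide in isolated nuclei. All cells compared here carried SMARCA5 fused to the FKBP12F36V tag on both alleles, including the untreated ones. dTAG-47 is a small molecule that brings a tagged protein to a ubiquitin ligase, and it was given at 500 nM for 2, 6 or 24 h. There were 5 untreated libraries (0 h), 3 at 2 h, 4 at 6 h and 2 at 24 h. The 2 parental samples, with wild-type SMARCA5, were not analysed here. Whether the tagged line is 1 clone is not given in the sources used here. A code in the column names sorts the 14 libraries into 3 sets, called runs here, although what the code stands for is not stated. Run 1 holds 2 libraries at 0 h and 1 at 2 h, run 2 holds 2 at each time, and run 3 holds 1 at 0 h and 2 at 6 h.

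The respiratory chain passes electrons from NADH and succinate to oxygen and pumps protons across the inner mitochondrial membrane. Complex I (NADH dehydrogenase) and complex II (succinate dehydrogenase) feed electrons to ubiquinone, complex III passes them to cytochrome c, complex IV (cytochrome c oxidase) reduces oxygen, and complex V uses the proton gradient to make ATP. Complexes I, III, IV and V also contain subunits made from mitochondrial DNA, which were not analysed here, while all complex II subunits are nuclear. The transcription factors NRF1, GABP (an ETS factor) and YY1 are known to bind promoters of many of these nuclear genes.

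Promoter sequences of 6 members described below are shown, 4 with a match to the NRF1 core and 2, ATP5G1 and NDUFAF2, chosen for their changes and with CCAAT boxes only among the motifs in the stretch printed. Each is the stretch of 120 bases before the RefSeq start, 5′ to 3′ on the gene's strand, with matches to the searched motifs in capitals. The motifs searched on both strands were GCATGCGC (the NRF1 core), CCGGAAGT (ETS), AAGATGGC (YY1), CCAAT and GGGCGG (the GC box), and overlapping matches were allowed. NDUFS7 and SDHD hold an NRF1 core with a GC box or an ETS match, COX17 an NRF1 core, ATP5J an NRF1 core and a YY1 match, ATP5G1 3 CCAAT boxes, and NDUFAF2, which fell at every time, CCAAT boxes on both strands.
NDUFS7: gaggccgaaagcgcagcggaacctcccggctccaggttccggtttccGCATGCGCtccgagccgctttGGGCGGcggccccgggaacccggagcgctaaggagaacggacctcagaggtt
SDHD: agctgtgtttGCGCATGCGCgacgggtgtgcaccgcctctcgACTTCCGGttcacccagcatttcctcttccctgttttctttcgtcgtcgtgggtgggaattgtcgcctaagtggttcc
COX17: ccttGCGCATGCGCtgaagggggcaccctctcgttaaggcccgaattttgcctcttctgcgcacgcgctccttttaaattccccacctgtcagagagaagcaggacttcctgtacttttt
ATP5J: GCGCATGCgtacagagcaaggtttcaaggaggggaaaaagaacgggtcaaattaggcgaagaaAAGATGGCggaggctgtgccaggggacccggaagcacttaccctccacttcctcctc
ATP5G1: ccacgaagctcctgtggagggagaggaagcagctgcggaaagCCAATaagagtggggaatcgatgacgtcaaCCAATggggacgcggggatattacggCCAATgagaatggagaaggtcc
NDUFAF2: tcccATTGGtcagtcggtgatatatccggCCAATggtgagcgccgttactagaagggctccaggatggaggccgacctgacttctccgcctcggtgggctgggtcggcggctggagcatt
In RefSeq GRCh38.p14 these stretches are chr19:1383787-1383906 on the plus strand for NDUFS7, chr11:112086753-112086872 on the plus strand for SDHD, chr3:119677407-119677526 on the minus strand for COX17, chr21:25735055-25735174 on the minus strand for ATP5J, chr17:48892667-48892786 on the plus strand for ATP5G1 and chr5:60945085-60945204 on the plus strand for NDUFAF2. Promoters of 78 members were matched by accession, and over the whole window of 300 bases (250 before and 50 after the start) the NRF1 core was in 16 of them (20.5%), against 6.27% of the 8422 matched promoters of the tables' transcripts. The YY1 match was in 12 (15.4%, against 6.25%), the ETS match in 12 (15.4%, against 10.2%), CCAAT in 24 (30.8%, against 37.7%) and the GC box in 45 (57.7%, against 71.7%). Of the 23 matched members that passed the test at any time in gene bodies, 4 held the NRF1 core. A match is a description of the letters and not a binding site.

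Libraries held 11182894 to 34209362 reads in gene bodies and 1667950 to 7171601 in promoter-proximal regions. Levels are given as CPM, counts scaled to the library total after TMM normalization, and are thus shares of a library: a change common to all transcripts would not appear. Changes are log2 fold changes against 0 h from edgeR's quasi-likelihood fit with time and run as terms, on whose scale 1 is a 2-fold change, and a member was called when its Benjamini-Hochberg adjusted p over all transcripts tested was under 0.05. Along the leading principal component of gene-body levels (46.8% of the variance) both untreated libraries of run 1 lay at -46.6 and -37.1 and the other 12 between -10.1 and 28.4. On that of promoter-proximal levels (34.7%), the 3 libraries of run 3 lay at 28.4, 43.0 and 70.1 and the other 11 between -28.9 and 2.11. SMARCA5 itself, whose protein and not its gene is the target, had log2 changes of -0.27, -0.11 and -0.18 at 2, 6 and 24 h (edgeR adjusted p = 0.078, 0.52 and 0.41). Of the myeloid progenitor markers listed, 7 of 10 were measured, with KIT at 3799 and MPO at 980 CPM at 0 h. The summed level of the 7 was 6772 to 9584 CPM. In gene bodies 1 rose and 2 fell at 2 h (38.6% of all transcripts called), and 4 rose and 2 fell at 24 h (19.8%). None of the 5 listed B cell markers or the 5 listed T cell markers was among the transcripts counted, so their levels are not known. Of 8 erythroid markers only KLF1 was measured (8.74 to 30.7 CPM). In bulk libraries fewer cells of a type and less RNA per cell cannot be told apart.

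At 2 h, 20 of the 91 members were called in gene bodies, 17 of which rose and 3 fell, against 38.6% of all transcripts called. The members that rose made up 18.7% and those that fell 3.30%, beside 19.7% and 18.9% of all transcripts. The median log2 change of the members was 0.13, and that of all transcripts 0.014. At 6 h, 10 members were called (8 rose, 2 fell; all transcripts 26.8%), with a median of 0.026 against 0.012. At 24 h, 8 were called (6 rose, 2 fell; all transcripts 19.8%), with a median of 0.0089 against 0.011. At all 3 times the share of members called was below that of all transcripts. The members together took 0.390% and 0.391% of gene-body reads in the untreated libraries of run 1 and 0.452% in the 2 h library of that run. In run 2 the share was 0.392% and 0.395% at 0 h, 0.442% and 0.445% at 2 h, 0.415% and 0.410% at 6 h, and 0.404% and 0.394% at 24 h. This share of raw reads was thus highest at 2 h in both runs. At 24 h one of the 2 libraries lay within the untreated range of its run. In run 3 it was 0.439% at 0 h and 0.433% and 0.436% at 6 h, with no higher value after treatment. The share is not scaled by the TMM factors, which in run 1 were 0.9218 and 0.9477 at 0 h and 1.044 at 2 h. In run 2 they were 0.9647 and 0.9694 at 0 h and 1.024 and 1.025 at 2 h. After scaling, the median log2 deviation of the members from the run's untreated mean was smaller in run 1. At 2 h it was 0.060 in run 1 and 0.16 and 0.15 in run 2. Leaving out the 2 h library of run 1 left 13 members called at 2 h, leaving out either 24 h library left 0 or 1 at 24 h, and leaving out the 0 h B library of run 2 left 4 at 24 h. At 6 h, leaving out 1 library left 3 to 11. Removal of 0 h A or 6 h A of run 3 left 6 or fewer. So did removal of 0 h B, 2 h B or either 6 h library of run 2. The whole table moved as well: without the 2 h library of run 1, 1922 of all transcripts were called at 2 h, against 3979. At 6 h the removals gave 1545 to 3329, against 2762.

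**Figure D1:**
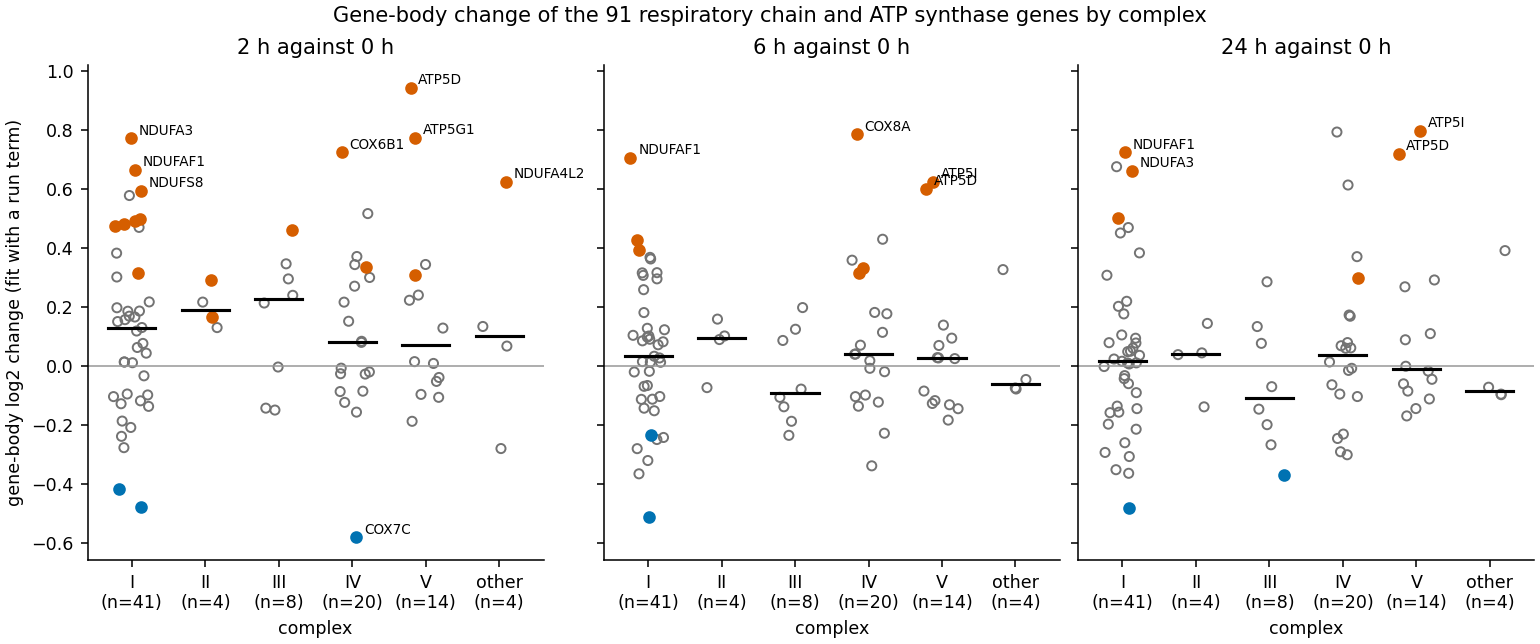
Gene-body log2 change of the 91 members at 2, 6 and 24 h against 0 h, grouped by complex (n on the axis). Orange points rose and blue points fell at an adjusted p under 0.05, open points were not called, black bars are group medians, and names are given for called members beyond 0.55; at 2 h 17 points are orange and 3 blue, at 24 h 6 and 2.

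Across the 3 times, 25 members were called at least once, 20 upward and 5 downward, and 66 never. Of these, 6 were called at 2, 6 and 24 h in 1 direction: NDUFS8, NDUFA3, NDUFAF1, COX11 and ATP5D rose and NDUFAF2 fell. Another 14 were called at 2 h and at neither later time. Of the members not called at 2 h, 59 of 71 had a 95% interval of the change that lay inside 1.5-fold in either direction, as had 64 of 81 at 6 h and 58 of 83 at 24 h. Over all 91 members the share with such an interval was 70.3% at 2 h, close to the 69.5% of all transcripts.

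In complex I, 10 of 41 members were called at 2 h (8 rose, 2 fell), 5 at 6 h (3 rose, 2 fell) and 4 at 24 h (3 rose, 1 fell). The core subunits carry the flavin and iron-sulphur clusters through which electrons pass, and 4 of the 7 nuclear ones rose at 2 h: NDUFS3, NDUFS7, NDUFS8 and NDUFV1. Their median at 2 h was 0.31, against 0.12 for the 30 accessory subunits, of which 3 rose and 1 fell; this difference was not tested. NDUFS8, which holds 2 iron-sulphur clusters, stood at 18.9 and 24.1 CPM in the untreated libraries of run 1, 32.6 and 28.3 in those of run 2 and 38.9 in that of run 3. It reached 39.9 CPM in run 1 and 37.6 and 40.1 in run 2 at 2 h, 36.4 and 35.6 in run 2 and 61.2 and 45.3 in run 3 at 6 h, and 41.3 and 37.4 at 24 h. Within each run every treated library was higher than the untreated ones, but the groups overlapped across runs. The log2 change was 0.59 ± 0.13 (SE) at 2 h, 0.39 ± 0.13 at 6 h and 0.50 ± 0.16 at 24 h (edgeR adjusted p = 0.0040, 0.044 and 0.044); leaving out the 2 h library of run 1 ended the call at 2 h, and 10 of the 14 single-library removals ended it at 6 h, as did 10 at 24 h. NDUFS3 rose by 0.31 ± 0.07 at 2 h (adjusted p = 0.0039), from 34.2 to 46.4 CPM untreated to 44.9 to 48.0, and was at 0.026 ± 0.07 at 6 h. NDUFS3 overlaps KBTBD4, which rose as well (0.38 at 2 h, adjusted p = 0.0090), and how reads in the shared stretch were assigned was not tested. NDUFS7 (0.48 ± 0.14) and NDUFV1 (0.50 ± 0.16), which binds NADH and the flavin, rose at 2 h with adjusted p of 0.018 and 0.029, and both calls were lost without the 2 h library of run 1 (that of NDUFV1 also without either untreated library of run 1).

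Of the accessory subunits, which surround the core and stabilise it, NDUFA3 (hg19 chr19:54606160-54610281, as the deposited tables give it) showed the largest called rise of complex I at 2 h. Its untreated CPM was 7.18 and 7.62 in run 1, 5.40 and 4.51 in run 2 and 10.6 in run 3. At 2 h it was 11.9 in run 1 and 10.3 and 9.45 in run 2, at 6 h 8.29 and 8.18 in run 2 and 11.1 and 12.2 in run 3, and at 24 h 9.73 and 8.17. Treated libraries were higher than the untreated ones of the same run at each time. The log2 change was 0.77 ± 0.14 at 2 h, 0.42 ± 0.14 at 6 h and 0.66 ± 0.18 at 24 h (edgeR adjusted p = 0.0013, 0.040 and 0.020), and without a run term it was lost at all 3 times. Leaving out 1 library ended the call in 6 of 14 cases at 6 h, and at 24 h without 0 h B of run 2 or either 24 h library. NDUFC1 rose at 2 h (0.47 ± 0.13, adjusted p = 0.011), with 91.5 to 143 CPM untreated and 135 to 184 at 2 h; the groups overlapped, and it shares sequence with NAA15, which fell (-0.29). NDUFB7 also rose at 2 h (0.49 ± 0.16, adjusted p = 0.026). NDUFA5 fell at 2 h (-0.42 ± 0.12, adjusted p = 0.014): 10.8 to 13.9 CPM untreated and 8.82 to 10.4 at 2 h, with no overlap. The calls of NDUFC1, NDUFB7 and NDUFA5 were lost without the 2 h library of run 1, and that of NDUFB7 also without 0 h A of run 1 or 2 h B of run 2. NDUFA10 was lower at 6 h (-0.24 ± 0.08, adjusted p = 0.045), a call lost in 7 of the 14 single-library removals. The other 25 accessory subunits did not pass the test against 0 h at any time.

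Of the 4 complex I assembly factors, NDUFAF1 rose and NDUFAF2 fell at all 3 times, as NDUFS8 and NDUFA3 of the same complex rose at all 3. NDUFAF1, a chaperone of the membrane arm's assembly and the complex I member with the lowest level per length (0.526 ± 0.090 CPM per kb; hg19 chr15:41679547-41694658), stood at 6.72 to 10.2 CPM in the 5 untreated libraries. It stood at 10.8, 12.8 and 12.2 CPM at 2 h, 11.5, 14.1, 14.1 and 15.6 at 6 h, and 14.3 and 10.6 at 24 h. No treated library overlapped the untreated ones. The log2 change was 0.66 ± 0.14, 0.70 ± 0.14 and 0.72 ± 0.17 at 2, 6 and 24 h (edgeR adjusted p = 0.0025, 0.0027 and 0.010), and the 24 h call was lost without the 24 h A library (adjusted p = 0.17). NDUFAF2, which helps to complete the enzyme and is the longest member at 208 kb (hg19 chr5:60240956-60448864), stood at 186 and 150 CPM untreated in run 1, 145 and 147 in run 2 and 135 in run 3. It was at 120, 113 and 102 CPM at 2 h, 108, 107, 86.6 and 103 at 6 h, and 111 and 110 at 24 h. Every treated library lay below every untreated one. The log2 change was -0.48 ± 0.09, -0.52 ± 0.09 and -0.48 ± 0.12 (adjusted p = 0.0020, 0.0016 and 0.011), called under all 23 alternatives at 2 h and at 6 h, and lost at 24 h when either 24 h library was left out. Its neighbour ERCC8, 51 bases away, fell too (-0.25 at 2 h, adjusted p = 0.036, and -0.43 at 24 h, adjusted p = 0.013). NDUFAF4 had a log2 change of -0.28 ± 0.12 at 2 h and NDUFAF3 of -0.14 ± 0.21, neither called in gene bodies.

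**Figure D2:**
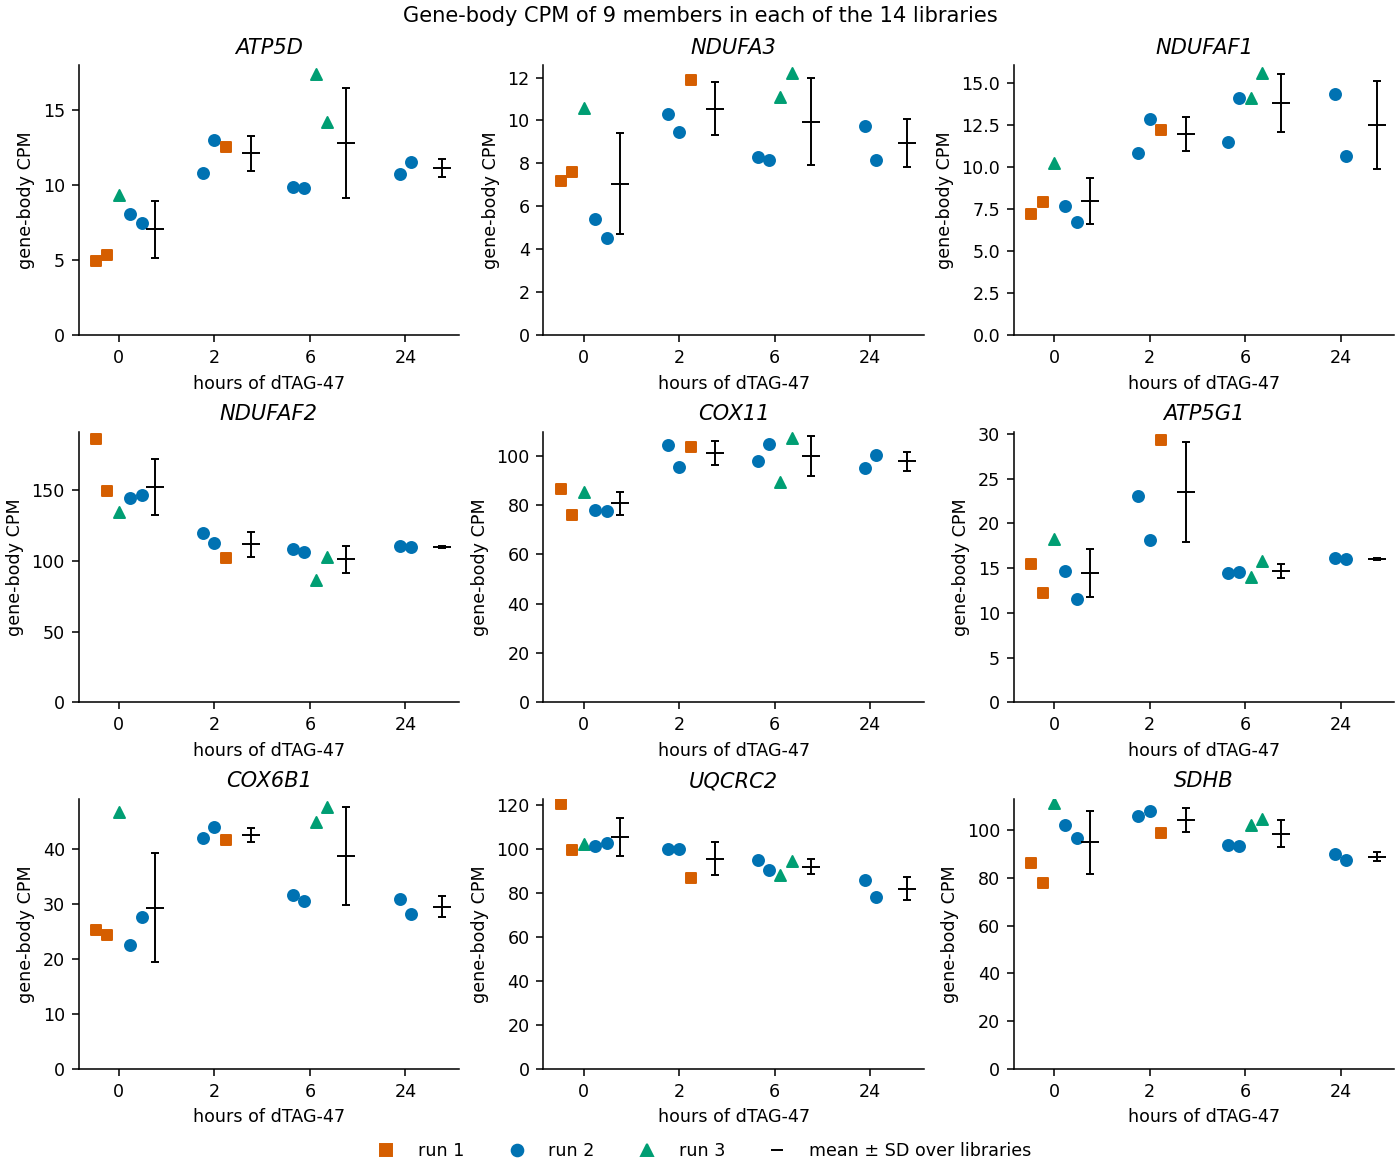
Gene-body CPM (linear axis from 0) of 9 members in each of the 14 libraries by hours of dTAG-47, with colour and shape giving the run and black bars the mean ± SD over the libraries of a time. NDUFAF2 shows every treated library below the untreated ones, NDUFAF1 every treated library above them, and COX6B1 an untreated run 3 library at 46.9 CPM above the other 4 (22.7 to 27.6).

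Complex II oxidises succinate to fumarate and is shared between the respiratory chain and the citric acid cycle. All 4 genes had higher estimates at 2 h, and 2 of them, SDHA and SDHB, were called. SDHA, the flavoprotein that holds the succinate site, stood at 79.9 to 91.1 CPM in the 5 untreated libraries and at 104, 117 and 101 at 2 h, without overlap; the change was 0.29 ± 0.09 (edgeR adjusted p = 0.019). At 6 h SDHA was at 81.3 to 104 CPM and at 24 h at 102 and 81.9, with changes of 0.10 and 0.043. SDHA was not called within run 1 or run 2 alone (0.24 and 0.34), nor without the 2 h B library of either run, and its neighbour CCDC127, 59 bases away, rose more (0.68, adjusted p = 0.00034). SDHB, the iron-sulphur subunit, had untreated values of 77.9 to 111 CPM and 106, 108 and 98.6 at 2 h, a change of 0.16 ± 0.06 (adjusted p = 0.046) that was lost in 10 of the 14 single-library removals and with DESeq2's size factors. At 24 h SDHB was at 90.1 and 87.5 CPM, lower than at 2 h by -0.30 ± 0.08 (adjusted p = 0.045), and 11 of the removals ended that call, as did dropping the run term or the libraries of run 3. SDHC and SDHD, the membrane anchors that bind ubiquinone, had changes of 0.13 ± 0.06 and 0.21 ± 0.11 at 2 h (adjusted p = 0.099 and 0.14), and SDHD was at 19.8 to 25.2 CPM untreated and 25.9 to 27.1 at 2 h. Per length, SDHB was the highest of the 4 (2.68 ± 0.37 CPM per kb, SD, n = 5) and SDHC the lowest (1.73 ± 0.12).

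Complex III had 1 of 8 members called at 2 h and another at 24 h. UQCRC1, a core protein on the matrix side, rose at 2 h by 0.46 ± 0.14 (edgeR adjusted p = 0.023). Its untreated CPM was 22.3 and 21.1 in run 1, against 42.5 and 43.4 in run 2 and 41.2 in run 3, and at 2 h it was 39.1 in run 1 and 46.0 and 47.1 in run 2. The rise was 0.85 in run 1 and 0.12 in run 2, and the difference between runs was itself called (0.73 ± 0.21, adjusted p = 0.022), and the call at 2 h was lost without 0 h B or 2 h B of run 1. UQCRC2, the other core protein, fell at 24 h by 0.37 on the log2 scale (SE 0.10, adjusted p = 0.021), with 85.8 and 78.1 CPM against 99.7 to 120 untreated. Its estimates were -0.15 at 2 h and -0.19 at 6 h, and leaving out either 24 h library ended the call. UQCRH, the highest of the complex per length (7.30 ± 0.41 CPM per kb), was at -0.14, -0.24 and -0.27 with adjusted p of 0.20, 0.056 and 0.091, and UQCRQ was the lowest (1.66 ± 0.42 CPM per kb). All 8 estimates were lower at 6 h than at 2 h and lower at 24 h than at 2 h. None of the 8 was called in either comparison, and most of all the members were lower as well. The 8 genes share the same libraries and are not replicates.

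Complex III's cytochrome c1 gene, CYC1, falls outside the name rule and belongs to a list of 4 genes kept beside it, of which 3 were measured. CYC1 rose at every time (0.61 ± 0.09, 0.38 ± 0.09 and 0.49 ± 0.11; edgeR adjusted p = 0.00044, 0.010 and 0.010), from 29.3 ± 5.8 CPM (SD, n = 5). The electron carrier gene CYCS and the haem ligase gene HCCS were not called, at 0.10 and -0.033 at 2 h. Unlike the members, CYC1 was not run with single libraries left out or without a run term.

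In complex IV, 3 of 20 members were called at 2 h (2 rose, 1 fell), 3 at 6 h, all upward, and 1 at 24 h. COX6B1 (hg19 chr19:36139125-36149686), which faces the intermembrane space, had the smallest adjusted p of all members at 2 h. Untreated values were 25.4 and 24.4 CPM in run 1, 22.7 and 27.6 in run 2 and 46.9 in run 3. At 2 h they were 41.6 in run 1 and 42.1 and 44.2 in run 2. At 6 h they were 31.7 and 30.6 in run 2 and 45.1 and 47.8 in run 3, and at 24 h 31.0 and 28.2. The 2 h libraries lay above the untreated ones of their own runs, while in run 3 the untreated and 6 h libraries were alike. The change was 0.72 ± 0.09 at 2 h (edgeR adjusted p = 0.00014), 0.18 ± 0.09 at 6 h and 0.17 ± 0.12 at 24 h. The level at 6 h was below that at 2 h by -0.55 ± 0.11 (adjusted p = 0.028) and at 24 h by -0.55 ± 0.12 (adjusted p = 0.019). Leaving out 1 library ended the first call in 5 of 14 cases (adjusted p up to 0.15) and the second without 2 h B of run 2 or either 24 h library (up to 0.26). With no run term both calls were lost, at -0.13 (adjusted p = 0.96) and -0.53 (adjusted p = 0.58), and the first was also lost without the libraries of run 3 (-0.46, adjusted p = 0.10). COX6B1 was the only member called between 6 and 2 h, where 1.58% of all transcripts were called, and with SDHB 1 of 2 called between 24 and 2 h (all transcripts 4.08%). Over all members, 65 of 91 estimates were lower at 6 h than at 2 h (median -0.079, all transcripts -0.0054) and 64 at 24 h (median -0.092, all transcripts -0.0066). Without a run term COX6B1's 2 h call was lost (adjusted p = 0.10).

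COX7C was the only complex IV member that fell at 2 h, by 0.58 on the log2 scale (SE 0.16, edgeR adjusted p = 0.014): 6.10 to 10.3 CPM untreated and 4.98, 5.17 and 5.10 at 2 h, with no overlap. COX8A rose at 6 h (0.78 ± 0.23, adjusted p = 0.025) on few reads, with 1.35 to 2.13 CPM untreated, 2.43 to 4.36 at 6 h and as few as 21 reads in a library. COX7C's call was lost without the 2 h library of run 1, and COX8A's in 5 of 14 single-library removals. Assembly factors of complex IV deliver copper and haem. COX11, a copper chaperone, stood at 76.0 to 86.4 CPM in the untreated libraries, 105, 95.4 and 103 at 2 h, 98.1, 105, 89.3 and 107 at 6 h, and 95.2 and 100 at 24 h. Every treated library was above every untreated one. The change was 0.33 ± 0.08, 0.31 ± 0.08 and 0.30 ± 0.10 (adjusted p = 0.0053, 0.011 and 0.044), held under all 23 alternatives at 2 h, lost at 6 h without 6 h B of run 2 and lost at 24 h in 7 of 14 single-library removals. COX11 overlaps TOM1L1, which was at -0.12 at 2 h and fell at 24 h (-0.36, adjusted p = 0.047). COX17, which hands copper on, rose at 6 h (0.33 ± 0.12, adjusted p = 0.048), with 12.2 to 14.7 CPM against 8.86 to 11.9, a call lost in 9 of 14 single-library removals. COX20 was the highest member of the complex per length (8.90 ± 0.91 CPM per kb) and COX10, which makes the precursor of haem a, the lowest (0.489 ± 0.040); neither was called.

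In complex V, 3 of 14 members rose at 2 h, 2 at 6 h and 2 at 24 h, and none fell. ATP5D (hg19 chr19:1241749-1244824) encodes the delta subunit of the rotating stalk and had the largest rise of all members at 2 h. Its untreated CPM was 4.94 and 5.33 in run 1, 8.09 and 7.46 in run 2 and 9.35 in run 3. It was 12.5 in run 1 and 10.8 and 13.0 in run 2 at 2 h, 9.88 and 9.80 in run 2 and 17.3 and 14.2 in run 3 at 6 h, and 10.7 and 11.5 at 24 h. No treated library overlapped the untreated ones. The change was 0.94 ± 0.15, 0.60 ± 0.15 and 0.72 ± 0.19 at 2, 6 and 24 h (edgeR adjusted p = 0.00055, 0.012 and 0.017). The call was lost at 6 h without the untreated library of run 3 and at 24 h without either 24 h library. ATP5G1, ATP5G2 and ATP5G3 encode the same mature c subunit of the proton-driven ring. ATP5G1 rose at 2 h (0.77 ± 0.15, adjusted p = 0.0019), from 11.5 to 18.3 CPM untreated to 23.0, 18.1 and 29.3, and was at or below 15.8 CPM at 6 h and at 16.1 and 16.0 at 24 h, within the untreated range. ATP5G2, the highest of the complex per length (9.91 ± 0.68 CPM per kb), was at -0.041 ± 0.06 at 2 h, and ATP5G3 at 2 h was -0.74 in run 1 and 0.30 in run 2. ATP5J, whose promoter is printed above and which shares sequence with GABPA, was at -0.11, -0.13 and -0.15, not called. ATP5O, of the peripheral stalk, rose at 2 h (0.31 ± 0.08, adjusted p = 0.0092): 42.4 to 62.5 CPM untreated and 56.0 to 57.9 at 2 h, overlapping through the untreated library of run 3. ATP5I, the lowest per length (1.20 ± 0.29 CPM per kb), rose at 6 h (0.62 ± 0.21, adjusted p = 0.039) and 24 h (0.79 ± 0.25, adjusted p = 0.037) from 24 reads upward in a library, and 7 single-library removals ended the call at each time.

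Of the 4 members that match by name, NDUFA4L2 was called, at 2 h (0.62 ± 0.23, edgeR adjusted p = 0.046). It stood at 7.82 and 10.1 CPM untreated in run 1 and 21.2 at 2 h, but at 16.3 and 18.8 untreated and 15.7 and 18.6 at 2 h in run 2. Its change was 1.25 in run 1 and -0.026 in run 2, and leaving out 1 library ended the call in 11 of 14 cases. It overlaps SHMT2, which rose (0.68, adjusted p = 0.0031). ATP5S, ATP5SL and COX4NB had changes of -0.28, 0.066 and 0.13 at 2 h and were not called at any time.

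The runs differed for many members at 2 h. Within run 1, whose 2 h value is 1 library assumed to vary like the others, 24 members rose and 15 fell, against 53.6% of all transcripts called. Within run 2, 17 rose and 1 fell, against 19.5%. The change in run 1 differed from that in run 2 for 18 of the 91 members (6 higher and 12 lower in run 1), beside 28.3% of all transcripts. Among them, ATP5J2-PTCD1 was at 0.54 in run 1 and -0.22 in run 2 (difference 0.77 ± 0.16, edgeR adjusted p = 0.0047), NDUFAF4 at -0.66 and 0.031 (-0.69 ± 0.15, adjusted p = 0.0068) and NDUFB8 at -0.61 and 0.17 (-0.78 ± 0.18, adjusted p = 0.0071). ATP5J2-PTCD1 spans BUD31, CPSF4 and PTCD1, so its 272 ± 43 CPM (SD, n = 5) is a value of the locus. Of the 20 members called at 2 h, 19 had the same sign in both runs, and NDUFA4L2 was the exception. The calls came from a fit that includes these libraries, so that agreement is partly set by the selection. Over all 91 members, 57 had the same sign in both runs. At 6 h, 63 of 91 estimates were above 0 in run 2 and 32 in run 3. Run 2 called 8 rises and 4 falls (24.5% of all transcripts), and run 3 called 2 and 2 (14.5%). No member's difference between runs 3 and 2 was called at 6 h (0.437% of all transcripts), where 16 had an unadjusted p under 0.05. The 10 called members, selected by a fit of the same libraries, had the same sign in both runs, as had 42 of all 91. Over the 91 members the changes in runs 1 and 2 at 2 h had a rank correlation of 0.281 (0.464 over all transcripts) and those in runs 2 and 3 at 6 h of 0.183 (0.55); both are across genes, which are not replicates and share libraries.

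**Figure D3:**
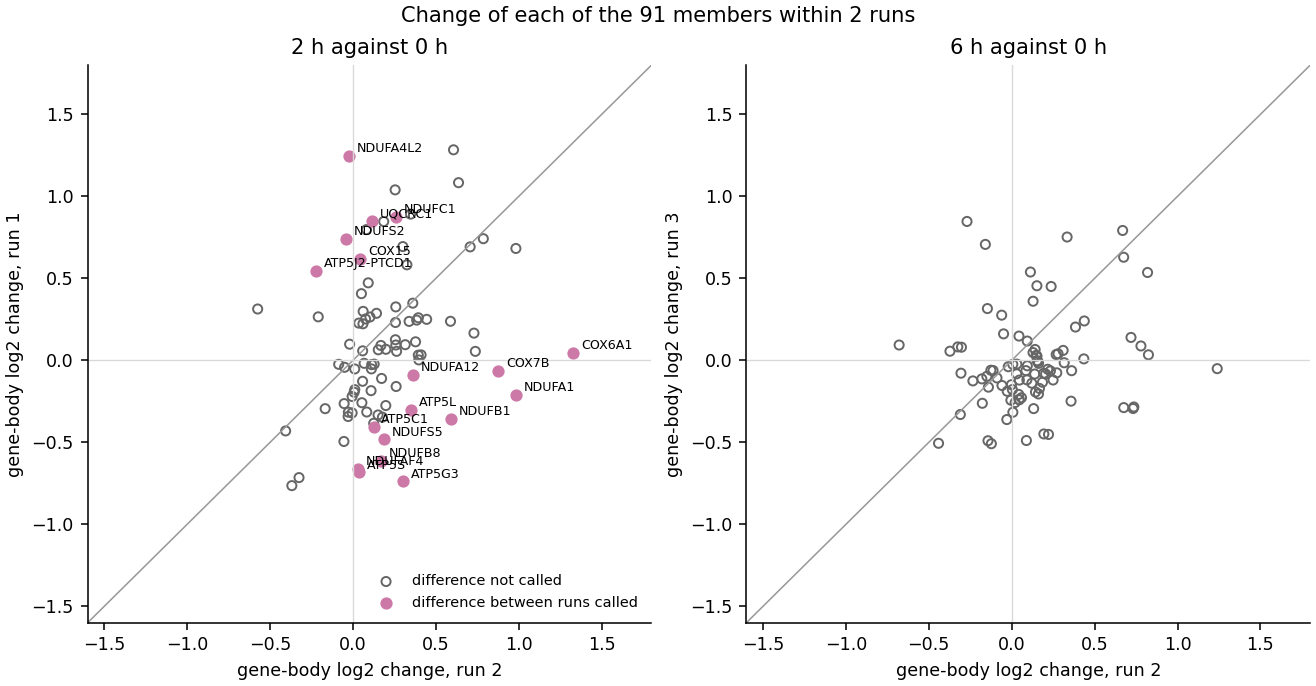
Gene-body log2 change of each of the 91 members in run 1 against run 2 at 2 h (left) and in run 3 against run 2 at 6 h (right), with the line of equal change. Filled and named points are the 18 members at 2 h whose change differed between runs at an adjusted p under 0.05, and NDUFA4L2 stands at 1.25 in run 1 and -0.026 in run 2.

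Respiratory chain genes are short: members had a median length of 10.7 kb (1.902 to 207.9) and all transcripts 24.8 kb. Across the whole table the median change at 2 h was higher in shorter transcripts. In the fifth with the shortest transcripts (1.06 to 8.29 kb) the median change was 0.25 over all 2061 transcripts and 0.30 over the 33 members there, of which 8 rose and 1 fell. In the next (8.29 to 17.9 kb) the medians were 0.12 for all and 0.12 for the 37 members. Over the longest (from 69.6 kb) they were -0.14 and -0.12, with 3 members. In the shortest group 9 of 33 members were called, beside 35.3% of all transcripts there, and in the next 8 of 37, beside 34.2%. In these groups the member medians were near those of transcripts of like length, while between 33.8 and 69.6 kb the 8 members had a median of 0.13 against -0.066. The rank correlation of length and change at 2 h was -0.357 over the members and -0.397 over all transcripts. At 24 h the shortest group had medians of 0.22 for all and 0.13 for the members.

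**Figure D4:**
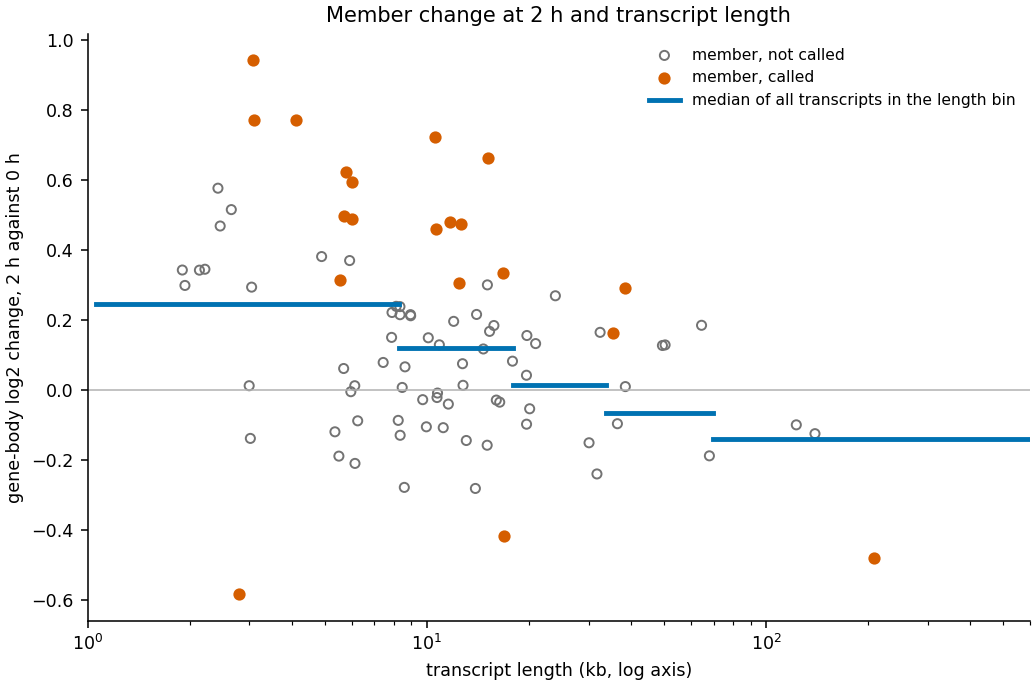
Gene-body log2 change at 2 h of the 91 members against transcript length (log axis, kb), with called members filled. Blue bars are the median of all transcripts in 5 length groups of equal size, from 0.25 in the shortest to -0.14 in the longest, and the member points lie on both sides of them.

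Near promoters, 90 of the 91 members passed the filter on low counts, and ATP5G2 did not. At 0 h the median share of a gene's reads that lay near the promoter was 31.8% for the members and 12.7% for all transcripts. At 2 h, 1 of the 90 was called, beside 4.61% of all transcripts. NDUFAF3, an assembly factor, stood at 40.6 and 30.8 CPM untreated in run 1, 21.3 and 28.2 in run 2 and 16.1 in run 3. It was at 15.7 in run 1 and 16.4 and 13.7 in run 2 at 2 h, 13.4, 11.6, 11.7 and 12.4 at 6 h, and 10.03 and 13.2 at 24 h. All treated libraries were below the untreated ones of their run. The log2 change was -0.86 ± 0.24 at 2 h (edgeR adjusted p = 0.049), -0.82 ± 0.25 at 6 h (0.099) and -1.07 ± 0.32 at 24 h (0.10), and 11 of 14 single-library removals ended the 2 h call. NDUFAF3 overlaps DALRD3, whose gene body rose (0.73, adjusted p = 0.0040). By DESeq2 5 members fell near promoters at 2 h, where it called 702 of all transcripts, against 460 by edgeR. No member was called near promoters at 6 h (all transcripts 2.24%) or at 24 h (1.41%) by edgeR or DESeq2, where 6 and 10 had an unadjusted edgeR p under 0.05. Medians near promoters were -0.065, -0.042 and -0.036 for the members and -0.0018, 0.0071 and 0.0049 for all transcripts. With the gene-body scaling applied instead they were -0.24, -0.28 and -0.27 for the members and -0.16, -0.23 and -0.23 for all transcripts, so most of that shift was common to the table.

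The change near promoters minus that in gene bodies, tested with limma on log2 CPM differences, was called at 2 h for 1 of 90 members (all transcripts 1.15%). That was NDUFC1, at -0.98 ± 0.22 (limma adjusted p = 0.046). Its promoter-proximal CPM was 33.1, 31.3, 44.4 and 52.5 untreated in runs 1 and 2 and 12.6 in run 3, and 28.1, 26.1 and 34.8 at 2 h, all lower than the untreated values of the same run, while the gene body rose. At 6 h in run 2 it was at 64.3 and 65.6, and the difference was 0.10 ± 0.22. The 2 h call was lost in 10 of 14 single-library removals. None was called at 6 h (0.401% of all transcripts) or 24 h (0.271%), where 5 and 6 members had an unadjusted limma p under 0.05. At 2 h 65 of 90 estimates were below 0, with a median of -0.19 against -0.026 for all transcripts. Members were shorter (median 10.7 against 24.8 kb) and had a larger promoter-proximal share of reads (31.8% against 12.7%). No comparison with transcripts of like length was made for this difference. Among the 90 members tested near promoters the lowest count in a library was 3 reads.

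**Figure D5:**
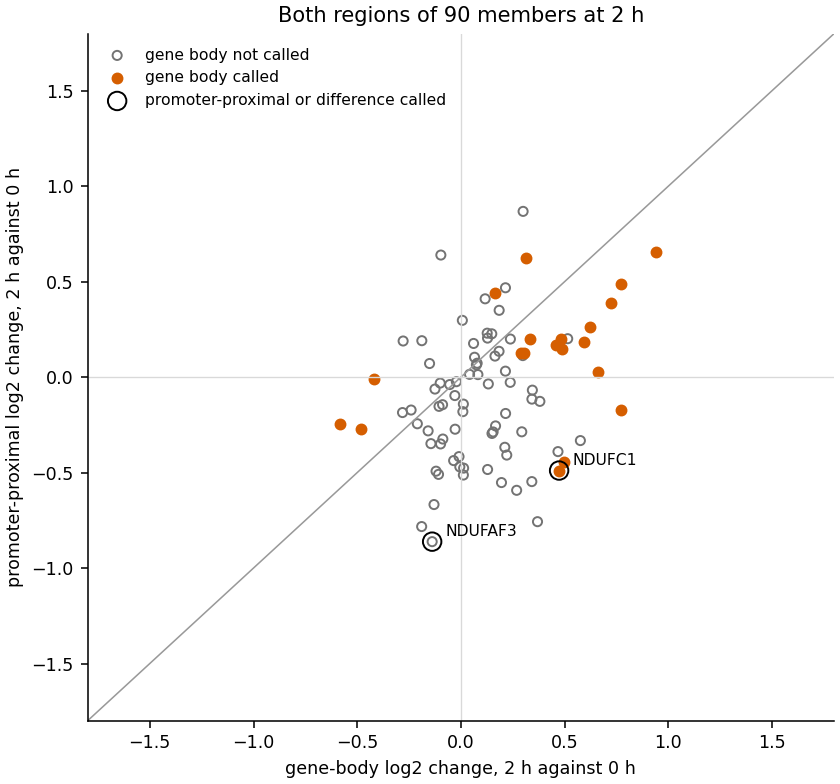
Promoter-proximal against gene-body log2 change at 2 h for the 90 members measured in both, with the line of equal change. Filled points were called in gene bodies, and ringed points are NDUFAF3, called near the promoter (-0.86), and NDUFC1, called for the difference of the regions (-0.98).

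Genes that act with the chain were counted in gene bodies from lists kept beside the name rule. Unlike the members, genes of these lists were not run under the alternatives. How far their calls hang on single libraries or the run term was thus not tested. Of all transcripts, 38.6% were called at 2 h, 26.8% at 6 h and 19.8% at 24 h. Of 41 listed assembly factors 25 were measured, and 4 rose and 2 fell at 2 h, 0 and 3 at 6 h, and 1 and 2 at 24 h. Among them SURF1, a complex IV factor, rose at 2 h (0.50 ± 0.10, edgeR adjusted p = 0.0021), while ECSIT, a complex I factor, was at -0.078 at 2 h and fell at 6 h (-0.53 ± 0.13) and 24 h (-0.92 ± 0.17; adjusted p = 0.010 and 0.0026). C19orf52, on that list although its product is known as a part of the TIM22 protein import machinery, rose at 2 h (0.86 ± 0.19, adjusted p = 0.0039). LRPPRC, which stabilises mitochondrial messenger RNA, fell at all 3 times (-0.37 ± 0.09, -0.43 ± 0.09 and -0.54 ± 0.11; adjusted p = 0.0080, 0.0046 and 0.0059). Of 19 listed regulators of respiratory genes 16 were measured, and 2 rose and 2 fell at 2 h, 1 and 4 at 6 h, and 1 and 0 at 24 h. GABPB2, a partner of the ETS factor GABPA, rose at all 3 times (0.71 ± 0.10, 0.84 ± 0.10 and 0.84 ± 0.12; adjusted p = 0.00021, 6.8e-05 and 0.00044). The coactivator gene PPARGC1B fell at 2 h (-0.30 ± 0.06, adjusted p = 0.0029) and 6 h (-0.40 ± 0.06), and TFB2M, which starts mitochondrial transcription, fell at 6 h (-0.27 ± 0.07, adjusted p = 0.016).

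Ubiquinone carries electrons between complexes, and of the 15 listed genes of its synthesis 11 were measured. In gene bodies 5 rose and 1 fell at 2 h, 3 and 2 at 6 h, and 0 and 1 at 24 h. The shares of all transcripts called at these times were 38.6%, 26.8% and 19.8%. PDSS1, which makes the isoprenoid tail, fell at all 3 times (-0.19 ± 0.05, -0.39 ± 0.05 and -0.36 ± 0.06; edgeR adjusted p = 0.0073, 0.00012 and 0.0012). COQ4 (0.46 ± 0.10) and ADCK4 (0.50 ± 0.13) rose at 2 h, with adjusted p of 0.0048 and 0.0096. Of the 18 citric acid cycle and pyruvate dehydrogenase genes, all measured, 3 rose in gene bodies at 2 h and none fell. At 6 h 0 rose and 3 fell, as did 2 at 24 h. OGDH rose at 2 h (0.49 ± 0.10, adjusted p = 0.0032), and so did IDH3B (0.38 ± 0.10, adjusted p = 0.0087). SUCLG2 was at -0.084 at 2 h and fell at 24 h (-0.35 ± 0.07, adjusted p = 0.0045). Near promoters COQ7 rose at 2, 6 and 24 h (0.81, 0.84 and 0.94, edgeR adjusted p = 0.022, 0.026 and 0.046). COQ6 rose there at 2 and 24 h (0.96 and 1.32, adjusted p = 0.018 and 0.017). PDHB fell near its promoter at 2 h (-0.82, adjusted p = 0.043). Of the 11 and 18 genes, only COQ6, COQ7 and PDHB were called near promoters, and they were picked after these values were seen. The shares of all transcripts called there were 4.61% at 2 h, 2.24% at 6 h and 1.41% at 24 h.

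Of the 91 members, 12 overlapped another listed transcript and 39 had one within 1 kb. COX4I1 and COX4NB lie 25 bases apart. Processed copies of several subunit genes exist in the genome, and how reads that map more than once were counted is not given in the sources used here. By the authors' deposited table of gene bodies, members rose and fell in numbers of 18 and 4 at 2 h, 6 and 4 at 6 h, and 5 and 3 at 24 h, and by that for promoters none was called at any time. In the authors' deposited table NDUFAF3 had a promoter-proximal log2 change of -1.01 at 2 h with an adjusted p of 0.13.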

How the data were processed

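Trimmomatic 0.32, Bowtie2 2.2.2, SAMtools, HOMER and DESeq and the build hg19 are named for the authors' processing, per the submitters' processing notes; the sources used here do not give the bounds of the regions, the use of strand or the treatment of repeated hits. The authors' deposited tables hold whole-number read counts per transcript in gene bodies and promoter-proximal regions, with log2 fold changes and adjusted p-values (padj) of their own. A total of 84 deposited normalized columns (14 in each of 6 tables) were not used.

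From the counts, edgeR 4.0.16 (R 4.3.3; TMM, filterByExpr, quasi-likelihood test) was fitted over 14 libraries with time and run as terms, leaving 10304 gene-body and 9980 promoter-proximal transcripts. Changes within runs came from a fit of run-by-time means. Promoter-proximal minus gene-body values were differences of log2 CPM (prior count 2) tested with limma 3.58.1. DESeq2 1.42.0, other scalings, no filter, no run term, fewer groups and each library left out were alternatives. The fits were tested on simulated data. The submitters call the libraries biological replicates without saying which came from separate cultures, so p-values measure the spread between these libraries, which may be technical.

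The members and gene lists were chosen with earlier results of these data known. COQ6, COQ7 and PDHB were named after their promoter-proximal values were seen. Named members were the 6 rises and 6 falls of smallest adjusted p per time and region, the SDH genes, the highest and lowest per length and up to 3 of smallest adjusted p per complex, up to 4 that differed between runs, and up to 3 genes per list of smallest adjusted p; other called members, ATP5J, ATP5G3 and LRPPRC were named after their values were seen.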

Additional observations from a re-analysis of the deposited data

Results flagged for a closer look

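Among 74 groups of libraries of the named members tested for 1 library far from the rest, 3 had one. Chance gives about 1 in 20, a share that 3 of 74 does not exceed. The groups mix runs, and whether a library or its run stood apart was not tested. COX6B1 stood at 46.9 CPM in the untreated library of run 3, with the other 4 untreated libraries between 22.7 and 27.6. NDUFAF3 stood at 46.7 CPM in gene bodies in the 6 h A library of run 3, with the other 3 between 33.9 and 34.4. UQCRC2 stood at 120 CPM in the untreated A library of run 1, with the other 4 between 99.7 and 103.

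COX6B1 was lower at 6 h than at 2 h by -0.547 on the log2 scale (edgeR adjusted p = 0.0279) and at 24 h than at 2 h by -0.551 (adjusted p = 0.0195). SDHB was lower at 24 h than at 2 h by -0.303 (adjusted p = 0.0449). The change at 2 h was larger in run 1 than in run 2 for NDUFA4L2 by 1.27 (edgeR adjusted p = 0.0028) and for ATP5J2-PTCD1 by 0.767 (adjusted p = 0.0047), and smaller for NDUFAF4 by -0.691 (adjusted p = 0.0068) and NDUFB8 by -0.784 (adjusted p = 0.0071).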

How the results depend on the processing

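With no run term 8, 18 and 3 members were called in gene bodies at 2, 6 and 24 h. Of these, 8, 8 and 3 were among the 20, 10 and 8 reported. Of all transcripts, 1365, 3010 and 1111 were called in that setting, against 3979, 2762 and 2045 in the main fit. Near promoters it called 0 and 1 members at 2 and 6 h (6 and 163 of all transcripts), with a 24 h median of -0.127. For the difference of the regions at 2 h it called 0 members (2 of all transcripts). Only the groups compared gave 12 (2 h) and 4 (6 h) calls in gene bodies, where 1917 and 2828 of all transcripts were called. It gave 0 near promoters at 2 h (199 of all transcripts) and a 24 h median of 0.0704. Within runs, run 1 called 39 at 2 h (median 0.0551) and 0 near promoters (median -0.142), run 2 called 0 near promoters at 2 h, with medians of 0.113 (6 h) and 0.0694 (24 h) in gene bodies and -0.111 near promoters at 6 h, and run 3 called 4 at 6 h (median -0.0629). NDUFA4L2 turned to -0.0258 within run 2. A threshold of 0.01 left 10, 2 and 0 calls in gene bodies, 0 near promoters at 2 h and 0 for the difference. DESeq2 called 5 near promoters at 2 h (702 of all transcripts). Gene-body scaling gave 0 there (34 of all transcripts), with medians of -0.242, -0.276 and -0.269 at 2, 6 and 24 h. Chosen after seeing the data, leaving out the untreated libraries of run 1 gave 16 gene-body calls at 6 h (all transcripts 3879). Near promoters it gave 2, 1 and 1 at 2, 6 and 24 h (all transcripts 428, 539 and 374). Leaving out run 3, also chosen then, gave 5 gene-body calls at 6 h (all transcripts 1470). It gave 4 and 1 near promoters at 2 and 24 h (703 and 216) and 2 for the difference at 2 h (114). Leaving out each library in turn gave 13 to 27, 3 to 11 and 0 to 8 gene-body calls, with medians of 0.111 to 0.144, -0.00334 to 0.0640 and -0.0304 to 0.0359. Near promoters it gave 0 to 4 calls at 2 h (4 without 0 h B of run 1) and medians of -0.0947 to -0.0523, -0.0822 to -0.0115 and -0.144 to -0.0429, and for the difference at 2 h 0 to 3 calls. Of all transcripts, single-library removals gave 1922 to 4265 gene-body calls at 2 h and 1545 to 3329 at 6 h. The causes were not tested. DESeq2's size factors and no filter moved no count of calls by over 1.5 times. The 2 h calls of ATP5D, ATP5G1, NDUFAF1, NDUFAF2 and COX11 held under all 23 alternatives run for them. No paired analysis was possible because the columns carry a letter and a run code but not the replicate numbers of the labels. Near promoters the lowest count of a tested member in a library was 3 reads.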
